A study of Mus musculus with 6 samples.

Results

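The genes described here are those of the splicing machinery and its regulators: the SR proteins, the heterogeneous nuclear ribonucleoproteins (hnRNPs), the proteins of the small nuclear ribonucleoproteins (snRNPs), the PRPF, RBM, CELF and MBNL families, and the CPSF and CSTF factors that cleave the 3' end of mRNA. They were chosen by gene name (Srsf, Tra2, Hnrnp, Sf1, Sf3a, Sf3b, U2af, Snrp, Snrnp, Lsm, Prpf, Rbm, Celf, Mbnl, Cpsf and Cstf, each with its number or letter) from the genes annotated on the minus strand. The rule uses name and strand alone, though it was set with earlier results of these data known. The rule gave 65 of the 38483 genes in the files. A further 82 genes of the same names lie on the plus strand, where every gene was listed at 0 in every culture, so that Srsf1, Srsf3, Hnrnpa1, Prpf8, Sf1, Sf3a1 and U2af2, among others, could not be measured. The 65 genes therefore are a part of 147 genes with these names, set by strand and not by function.

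RNA-seq was done on mouse embryonic fibroblasts (MEFs) of the CD1 strain, in 3 wild-type (WT) cultures and 3 cultures that carry a heterozygous knockout of Nipbl (Nipbl+/-). NIPBL loads the cohesin ring onto chromosomes, and mutations of the human gene are found in Cornelia de Lange syndrome. The study asked how the transcriptome of Nipbl+/- MEFs differs from that of WT littermates. The MEFs came from E14.5 embryos of 1 pregnant mouse whose limbs, brain and internal organs had been taken out, were kept in DMEM with serum, and gave RNA at passage 3. Both genotypes were handled alike, no agent was added to either, and the knockout is present in all cells and not limited to a cell type.

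Introns are removed from pre-mRNA by the spliceosome, in which the U1 snRNP reads the 5' splice site, the U2 snRNP with its SF3A and SF3B proteins and the U2AF dimer reads the branch point and the 3' splice site, and the U4/U6.U5 tri-snRNP then forms the catalytic centre. Each snRNP is built on a ring of Sm proteins or, for U6, of LSm proteins. SR proteins mostly help and hnRNPs mostly hinder the use of the exons they bind, while RBM, CELF and MBNL proteins tune exon choice, mRNA stability or both in particular tissues.

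The total count per culture lay between 20307454 and 25990783, and 9061 genes had enough counts to be tested. Fibroblast markers were abundant, with Sparc, Fbn1, Col5a2 and Fn1 together at 30840 to 36720 CPM (read counts relative to the library size, scaled by the TMM factors of edgeR), while the summed markers of epithelial, muscle and neural cells reached at most 3.01, 1.35 and 2.14 CPM. Markers of endothelial cells summed to 72.2 to 104 CPM and those of macrophages to 61.4 to 200 CPM. Nipbl stood at 128, 145 and 135 CPM in the WT and at 101, 101 and 100.3 CPM in the Nipbl+/- cultures. The Nipbl+/- cultures were below the WT cultures in all 9 pairs, at a difference of -0.43 on the log2 scale with a standard error (SE) of 0.06 and an adjusted p of 0.0213 (quasi-likelihood F test of edgeR, adjusted after Benjamini and Hochberg). An exact two-sided permutation test gave p = 0.1, the smallest value that 3 against 3 cultures allow. The embryos were littermates, the sources do not say which culture came from which embryo, and all p-values measure the spread between these 6 cultures.

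Splicing genes were broadly expressed in the MEFs. Of the 65, 64 had counts in all 6 cultures and were tested, and the exception was Cpsf4l, a relative of the cleavage factor subunit CPSF4, with 1 count in WT replicate 3, 1 count in Nipbl+/- replicate 1 and none in the others. Levels of different genes were compared as RPKM, the deposited values in which a count is divided by the length of its gene and by the size of the library. The mean RPKM of the 6 cultures was at least 100 for 5 genes, between 10 and 100 for 41, between 1 and 10 for 16 and under 1 for 3. The highest mean levels belonged to Hnrnpk, which binds C-rich RNA, at 170 RPKM and a range of 159 to 184, to Hnrnpab, and to the cold-inducible Rbm3 at 154 RPKM and a range of 142 to 163. The ranges of Hnrnpk and Rbm3 overlapped. Hnrnpu, a nuclear scaffold protein, and Snrnp70, the 70K protein of U1, completed the group above 100 RPKM. The lowest tested gene was Rbm47, a cofactor of C-to-U editing, at 0.255 RPKM, which put the tested genes over a 665-fold span. The 5 genes with the most counts held 37.4% of all the counts of the 65 genes.

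**Figure D1:**
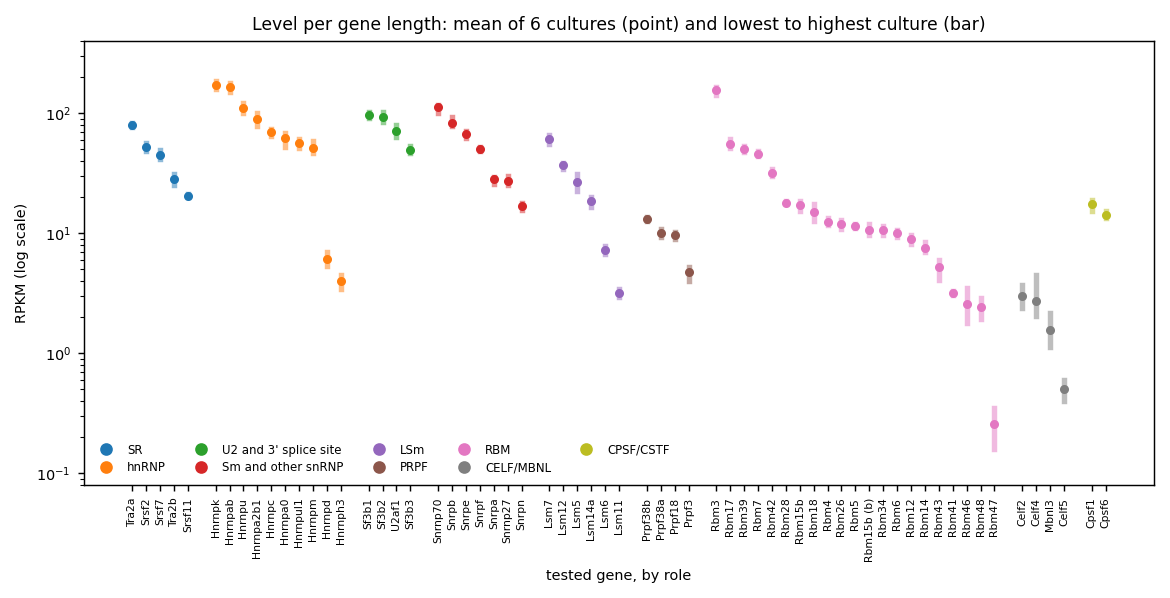
Level of 63 of the 64 tested splicing genes as RPKM (log axis), ordered within its role group. Points are means of 6 cultures and bars run from the lowest to the highest culture. The bars are short beside the 665-fold span between genes. Rbm15b (b) is the second of the pair of rows named Rbm15b.

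All 65 genes together took 0.884%, 0.899% and 0.93% of the total count in the WT cultures and 0.945%, 0.973% and 1% in the Nipbl+/- cultures. The Nipbl+/- shares were the higher ones in every pair. After TMM scaling, their summed expression was 9111, 9188 and 9196 CPM in WT and 9439, 9667 and 9733 CPM in Nipbl+/- cultures, a ratio of the means of 1.05. In a bulk sample, a larger share of cells of one kind and more RNA per cell cannot be told apart. The sum is led by its most counted genes, and the hnRNPs alone made up 35.7% of it in WT and 36.8% in Nipbl+/- MEFs, as means of 3 cultures.

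Gene by gene, the differences were small. In the quasi-likelihood test of edgeR, 1 of the 64 tested genes, Celf2, was higher in the Nipbl+/- cultures with an adjusted p under 0.05, where 1.04% of all tested genes were, and 0 were lower, where 0.916% of all tested genes were. That 1 gene is 1.56% of the 64, near the background. The exact test of edgeR called 3 of the 64 higher, beside 2.42% of all tested genes, and 0 lower, beside 2.35%. DESeq2 called 3 higher, beside 2.62%, and 0 lower, beside 2.34%. The 3 genes were Celf2, Mbnl3 and Rbm46 with both the exact test and DESeq2. With limma-voom, 1 was higher, beside 1.03% of all tested genes, and 0 were lower, beside 0.850%. At an unadjusted p under 0.05, 11 genes (17.2%) were higher, beside 8.98% of all tested genes, and 1 (1.56%) was lower, beside 7.95%. In CPM, 18 genes (28.1%) were higher in all 9 pairs of a Nipbl+/- and a WT culture, beside 12.0% of all tested genes, and 1 (1.56%) was lower in all 9, beside 10.8%. The log2 fold change was above 0 for 47 genes (73.4%) and below 0 for 17, where 48.4% of all tested genes were above 0. Its median was 0.06 over the 64 genes and -0.01 over all tested genes. With library size alone in place of TMM, the medians were 0.10 and 0.03, with 52 genes above 0. These genes share the same libraries, so the counts describe the list and carry no p-value of their own.

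**Figure D2:**
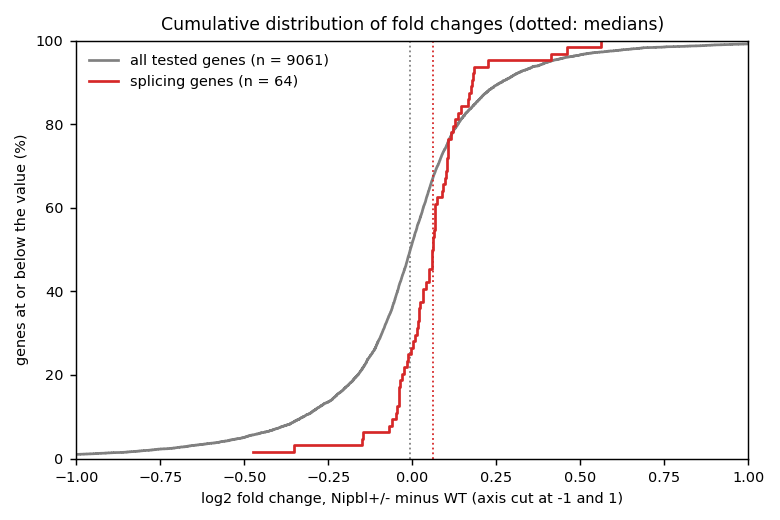
Cumulative share of genes (%) at or below each log2 fold change of Nipbl+/- against WT, for the 64 tested splicing genes and all 9061 tested genes, with dotted lines at the medians of 0.06 and -0.01. The curve of the splicing genes is steeper and lies below that of all genes at negative fold changes.

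The splicing genes varied little. The median standard error of their log2 fold changes was 0.06, with a range of 0.04 to 0.30, beside 0.10 over all tested genes, and the median biological coefficient of variation was 6.99% beside 9.37%. The median size of the change, whatever its sign, was 0.07 beside 0.11 over all tested genes. Estimates between -0.2 and 0.2 were found for 58 genes (90.6%), beside 69.1% of all tested genes. The splicing genes were also more highly expressed, at a median of 19.3 RPKM in the WT cultures beside 7.71 over all tested genes. The part of expression level in these differences of spread and size was not tested. For 56 of the 64, the lower end of the 95% interval lay above -0.2, so that a fall of more than 12.9% was outside the interval. The whole interval lay within 0.3 of 0 for 51 genes and within 0.5 for 58. Over the 64 genes, Spearman's rho between the average log2 CPM and the log2 fold change was 0.155 (0.0799 over all tested genes), and rho between gene length and the log2 fold change was -0.195. Both describe genes that share the same 6 libraries.

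**Figure D3:**
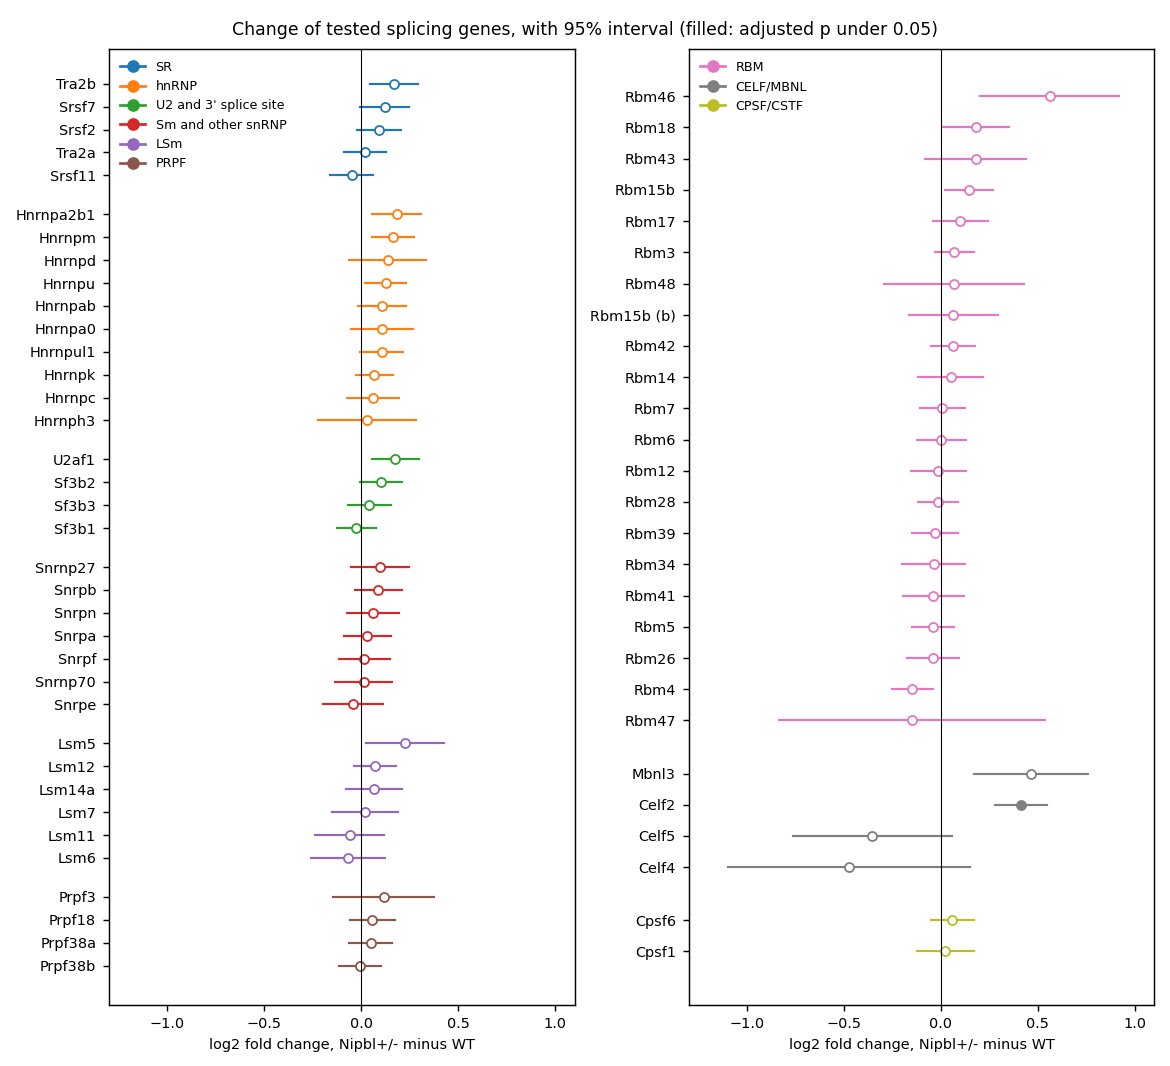
Log2 fold change of Nipbl+/- against WT for 63 of the 64 tested splicing genes, each with its 95% interval, by role group. Celf2 is the filled point, the gene with an adjusted p under 0.05. All 10 hnRNP genes lie to the right of 0, and the widest intervals belong to Rbm47 and Celf4.

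The CELF and MBNL families held the gene that passed the threshold, Celf2, and the lowest estimate among the 64 genes, that of Celf4. Celf2 binds GU-rich and CUG-containing RNA and controls alternative exons and mRNA decay in muscle, brain and T cells. It stood at 65.3, 66.2 and 70.4 CPM in the WT and at 84.7, 88.9 and 95.4 CPM in the Nipbl+/- cultures. The genotypes did not overlap, and the spread within each was smaller than the gap between them. The log2 fold change was 0.41 (SE 0.06, 95% interval 0.28 to 0.55, a 1.33-fold increase), with an adjusted p of 0.0232 in the quasi-likelihood test of edgeR. Leaving out single cultures kept this value between 0.37 and 0.45. The adjusted p was then 0.105 without WT replicate 1, 0.0742 without Nipbl+/- replicate 1 and 0.0775 without Nipbl+/- replicate 2, and it was under 0.05 in all 9 alternatives that kept every culture. Celf2 lies on chromosome 2 of mm10 from 6539694 to 7509563, and 1961 bases of its exons overlap those of a plus-strand long non-coding RNA, Gm26565. The sources used here do not say whether reads were counted by strand, and reads of Gm26565 and Celf2 in that stretch cannot be told apart. The same holds for 20 of the 65 genes, Hnrnpk, Hnrnpu, Hnrnpab, Srsf2 and Rbm18 among them. Per length the level of Celf2 was modest, at a mean of 2.97 RPKM, since its exons are long, at 25884 bases in GENCODE M21, a later annotation.

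Mbnl3, a muscleblind protein that binds CUG-type repeats, stood at 10.5, 12.2 and 13.1 CPM in the WT and at 15.4, 14.9 and 19.0 CPM in the Nipbl+/- cultures. All Nipbl+/- values were above all WT values, with the nearest pair at 13.1 and 14.9 CPM. The log2 fold change was 0.46 (SE 0.13) and the adjusted p 0.113 in the quasi-likelihood test. Mbnl3 is on the X chromosome of mm10, from 51117269 to 51206532, and Rbm3 and Rbm41 are on that chromosome too. Xist, the RNA of the inactive X, was at 1.13, 0.0445 and 360 CPM in the WT and at 340, 301 and 0.287 CPM in the Nipbl+/- cultures. It was thus high in WT replicate 3 alone and in Nipbl+/- replicates 1 and 2, an uneven mix between the genotypes. The highest Mbnl3 value of each genotype was in WT replicate 3, which had Xist, and in Nipbl+/- replicate 3, which lacked it. The part of Xist in the Mbnl3 result, and of the uneven mix of cultures in the other comparisons, was not tested.

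Celf4 and Celf5, members of the family known from the brain, lay the other way, and neither passed. Celf4 was at 11.6, 19.1 and 8.96 CPM in WT and at 11.9, 8.41 and 8.26 CPM in Nipbl+/- MEFs. WT replicate 2 stood above all the others and the remaining values overlapped. The log2 fold change of -0.47 (SE 0.27, adjusted p = 0.425 in the quasi-likelihood test) became -0.11 without WT replicate 2. Celf5 was at 3.99, 4.23 and 3.57 CPM in WT and at 3.70, 2.87 and 2.67 CPM in Nipbl+/- MEFs, which overlap (log2 fold change -0.35, adjusted p = 0.363). Together the 4 genes of the group summed to 91.4, 102 and 96.1 CPM in WT and to 116, 115 and 125 CPM in Nipbl+/- MEFs, of which Celf2 was the larger part.

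**Figure D4:**
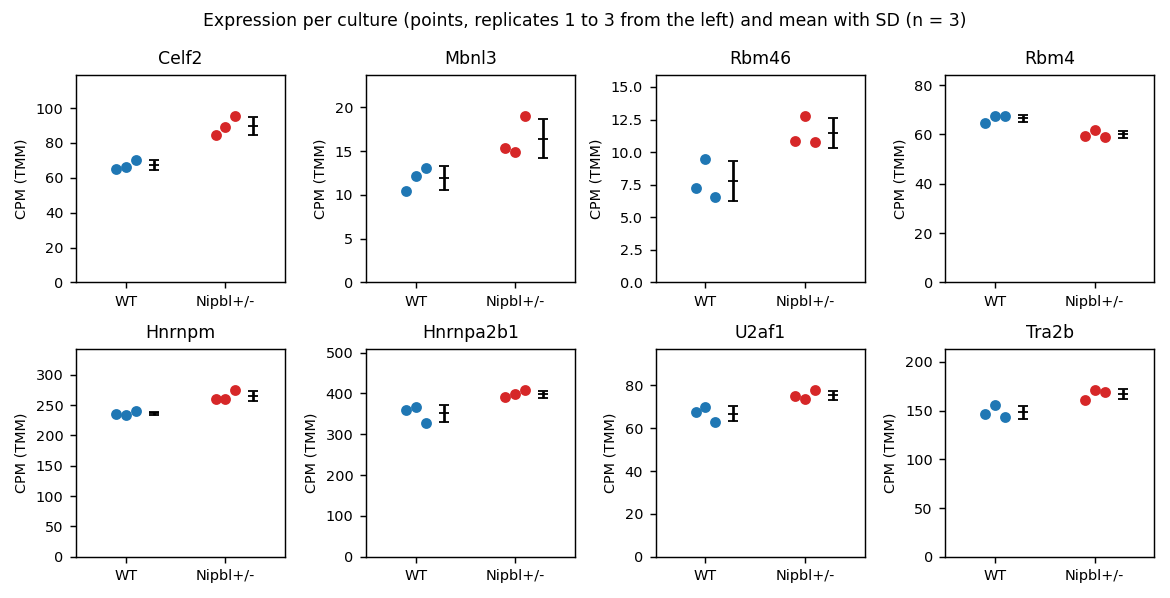
Expression (TMM-scaled CPM, axes from 0) of 8 splicing genes in each culture, with the mean and SD of 3 cultures per genotype. The 3 Nipbl+/- cultures are above the 3 WT cultures for 7 of the genes and below them for Rbm4. Of the 8, Celf2 alone had an adjusted p under 0.05.

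hnRNPs coat nascent transcripts. All 10 measured hnRNP genes had a log2 fold change above 0, from 0.03 for Hnrnph3 to 0.18 for Hnrnpa2b1, with a median of 0.11. Of all tested genes, 48.4% were above 0. None of the 10 had an adjusted p under 0.05, 3 were higher at an unadjusted p under 0.05 (8.98% of all tested genes), and 5 were higher in all 9 pairs (12.0% of all tested genes). Summed, they stood at 3238, 3307 and 3282 CPM in WT and at 3458, 3564 and 3581 CPM in Nipbl+/- MEFs, a ratio of the means of 1.08 with no overlap. Hnrnpa2b1, which binds UAG-containing RNA and takes part in RNA transport, had 359, 367 and 327 CPM in WT and 390, 398 and 407 CPM in Nipbl+/- MEFs. The gap between the highest WT and the lowest Nipbl+/- culture was narrower than the spread among the WT cultures. Its log2 fold change was 0.18 (SE 0.06, adjusted p = 0.141 in the quasi-likelihood test). Hnrnpm, which binds GU-rich sequence and acts on alternative exons, had 235, 234 and 240 CPM in WT and 260, 261 and 274 CPM in Nipbl+/- MEFs. Here the WT cultures lay close together and the genotypes were well apart, with a log2 fold change of 0.17 (SE 0.05, adjusted p = 0.119). The exons of Hnrnpm share 1169 bases with March2, also on the minus strand, and the counting of reads there is uncertain. Hnrnpu had 644, 634 and 683 CPM in WT and 699, 724 and 718 CPM in Nipbl+/- MEFs, again without overlap (log2 fold change 0.13, adjusted p = 0.213). Hnrnpk, the most abundant of all, had 957, 970 and 971 CPM in WT and 978, 1020 and 1041 CPM in Nipbl+/- MEFs. Those values did not overlap, but the log2 fold change was 0.07 with a 95% interval of -0.03 to 0.16. Hnrnpul1, at 0.11, was the fifth gene without overlap. The values of the other 5 overlapped between the genotypes. They were Hnrnpab and Hnrnpa0 at 0.11 each, Hnrnpd, a factor of AU-rich element decay, at 0.14, the U-tract binding Hnrnpc at 0.06, and Hnrnph3.

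Of the SR and Tra2 genes, whose proteins bind exonic enhancers, 5 were measured, with a median log2 fold change of 0.09. None had an adjusted p under 0.05, and 3 were higher in all 9 pairs, as were 12.0% of all tested genes. Tra2b had 146, 156 and 143 CPM in WT and 161, 171 and 169 CPM in Nipbl+/- MEFs. The genotypes did not overlap, and the log2 fold change was 0.17 (SE 0.05, adjusted p = 0.165 in the quasi-likelihood test). Its paralog Tra2a, the most abundant of the 5 per length at 79.8 RPKM, had 148, 148 and 153 CPM in WT and 152, 154 and 150 CPM in Nipbl+/- MEFs. These values were intermixed, with a log2 fold change of 0.02 and a 95% interval of -0.09 to 0.13. The difference between Tra2b and Tra2a was not tested. Srsf7 at 101, 102 and 97.7 against 103, 113 and 112 CPM, and Srsf2 at 152, 161 and 153 against 163, 167 and 166 CPM, were separated by less than the spread within a genotype (log2 fold changes 0.12 and 0.09). Srsf11 was at 155, 158 and 151 CPM in WT and at 146, 150.3 and 152 CPM in Nipbl+/- MEFs. These overlap, and the log2 fold change was -0.05.

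For the U2 snRNP and the 3' splice site, 4 genes were measured and none had an adjusted p under 0.05. U2af1, the small subunit of the U2AF dimer that reads the AG at the end of the intron, had 67.6, 69.9 and 63.0 CPM in WT and 75.2, 73.5 and 77.7 CPM in Nipbl+/- MEFs. The genotypes did not overlap, and the log2 fold change was 0.17 (SE 0.05, 95% interval 0.05 to 0.30, adjusted p = 0.142 in the quasi-likelihood test). Of the SF3B complex, which clamps the branch point, Sf3b2 had 302, 291 and 304 CPM in WT and 310.2, 324 and 329 CPM in Nipbl+/- MEFs, also without overlap (log2 fold change 0.10). Sf3b1 was the most abundant of the 4 per length, at 96.4 RPKM, and had 604, 625 and 638 CPM in WT and 605, 603 and 629 CPM in Nipbl+/- MEFs. The values were intermixed, and the log2 fold change of -0.02 had a 95% interval of -0.12 to 0.08. Its sign turned to 0.01 with library size alone in place of TMM. Sf3b3 had a log2 fold change of 0.04.

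The 7 genes of Sm and other snRNP proteins had log2 fold changes between -0.04 and 0.10, and none had an unadjusted p under 0.05. Snrnp70 stood at 205, 178 and 201 CPM in WT and at 196, 202 and 192 CPM in Nipbl+/- MEFs, with WT replicate 2 the lowest. Its log2 fold change was 0.01 with a 95% interval of -0.13 to 0.16, and the sign depended on the culture left out. Snrpb, which encodes the SmB protein of the Sm ring, had 165, 164 and 162 CPM in WT and 171, 167 and 183 CPM in Nipbl+/- MEFs and was the only gene of the group higher in all 9 pairs (log2 fold change 0.09). Its ring partners Snrpe and Snrpf were at -0.04 and 0.02. Snrnp27, a protein of the tri-snRNP, was at 0.10, and Snrpa, the A protein of U1, at 0.03. The row named Snrpn, at 0.06, carries an identifier that a later annotation (GENCODE M21) names Gm38393 and that spans both Snrpn and Snurf.

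Lsm5, Lsm6 and Lsm7 belong to the ring on U6 and to the related ring that starts mRNA decapping. Lsm5 had 20.5, 20.9 and 17.6 CPM in WT and 21.8, 23.1 and 24.1 CPM in Nipbl+/- MEFs. The genotypes did not overlap, though WT replicate 2 and Nipbl+/- replicate 1 were close, and the log2 fold change was 0.22 (SE 0.09, adjusted p = 0.251 in the quasi-likelihood test). Lsm6, at 33.8, 32.8 and 27.9 against 28.9, 30.6 and 30.6 CPM, had a log2 fold change of -0.07. Lsm7, the most abundant per length at 60.4 RPKM, had 29.4, 29.4 and 28.4 CPM in WT and 26.7, 30.8 and 30.8 CPM in Nipbl+/- MEFs. Its log2 fold change was 0.02, with a sign that turned when Nipbl+/- replicate 2 (-0.02) or 3 (-0.01) was left out. None of these 3 genes had an adjusted p under 0.05. Lsm11, which belongs to the U7 snRNP that processes histone mRNA, was at -0.06, and Lsm12 and the P-body protein Lsm14a were each at 0.07.

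The 5 PRPF genes had log2 fold changes from -0.00 to 0.12, and none had an unadjusted p under 0.05 or was higher in all 9 pairs. Prpf3, of the U4/U6 snRNP, had 24.2, 31.6 and 24.6 CPM in WT and 30.4, 30.1 and 26.6 CPM in Nipbl+/- MEFs. The highest value was that of WT replicate 2, so the genotypes overlapped, and the log2 fold change of 0.12 had the widest interval of the group, -0.14 to 0.38. Prpf18, which acts at the last step of splicing, was at 0.06. Prpf38a and Prpf38b were at 0.05 and -0.00.

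The RBM genes, a group joined by name and an RNA recognition motif more than by function, were the largest and the most mixed, with 12 of 21 rows above 0 and a median log2 fold change of 0.01. None had an adjusted p under 0.05, and 3 were higher and 1 lower at an unadjusted p under 0.05, beside 8.98% and 7.95% of all tested genes. Rbm46, known as a germ cell gene needed for meiosis, had the largest estimate of all the splicing genes. It lies on chromosome 3 from 82836523 to 82876483 and was low in every culture, at 7.21, 9.48 and 6.59 CPM in WT and 10.8, 12.8 and 10.7 CPM in Nipbl+/- MEFs. WT replicate 2 came close to the Nipbl+/- cultures without reaching them. The log2 fold change was 0.56 (SE 0.16, 95% interval 0.20 to 0.92, adjusted p = 0.113 in the quasi-likelihood test), and without WT replicate 2 it was 0.73 with an adjusted p of 0.0378. Of the fits without 1 culture, only that 1 put Rbm46 past the threshold. Across those fits its log2 fold change was 0.46 to 0.73 and its adjusted p reached 0.323. Without WT replicate 2, 130 of all genes were higher and 138 lower, beside 94 and 83 with all cultures. Rbm4, which regulates alternative exons and translation, was the only one of the 64 genes lower in all 9 pairs, at 64.7, 67.4 and 67.4 CPM in WT and 59.5, 61.6 and 59.1 CPM in Nipbl+/- MEFs. The spread within each genotype was smaller than the gap, and the log2 fold change was -0.15 (SE 0.05, adjusted p = 0.153). The exons of Rbm4 share 2990 bases with Gm21992, a minus-strand gene model that also shares 727 bases with the neighbour Rbm14, and how reads were divided among them is uncertain. Rbm14 itself was at 0.05.

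Rbm15b and Rbm18 were the other RBM genes with an unadjusted p under 0.05. Rbm15b, an adaptor of the complex that writes N6-methyladenosine, was listed in 2 rows whose spans are neighbours and do not overlap. Only 1 of the 2 identifiers is in the later GENCODE M21, as a single exon block of 6511 bases. The rows may therefore be parts of 1 gene. The row absent from GENCODE M21 had 49.8, 48.7 and 53.5 CPM in WT and 56.5, 55.5 and 56.2 CPM in Nipbl+/- MEFs, without overlap (log2 fold change 0.14, adjusted p = 0.223 in the quasi-likelihood test). The other row was at 0.06 with a 95% interval of -0.17 to 0.29. Rbm18 had 85.2, 77.6 and 85.7 CPM in WT and 103, 91.0 and 87.0 CPM in Nipbl+/- MEFs, with the lowest Nipbl+/- culture just above the highest WT culture (log2 fold change 0.18, adjusted p = 0.276). The abundant Rbm3 was at 758, 707 and 730 CPM in WT and 755, 777 and 769 CPM in Nipbl+/- MEFs, which overlap (log2 fold change 0.07). Rbm17 and Rbm39, splicing cofactors with a U2AF homology motif, were at 0.10 and -0.03. Rbm5 and Rbm6, neighbours that regulate exon skipping in apoptosis genes, were at -0.04 and 0.00, with Rbm5 at 179, 182 and 187 against 178, 175 and 180.1 CPM. Rbm7 and Rbm26, of nuclear RNA decay complexes, were at 0.01 and -0.04, Rbm28, a nucleolar protein, at -0.02, and Rbm48, a factor of minor introns, at 0.07. Rbm12, Rbm34, Rbm41, Rbm42 and Rbm43 lay between -0.04 and 0.18. Rbm47, the lowest gene, was at -0.15 with an interval of -0.83 to 0.54 that allows changes of either sign.

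For 3' end formation, Cpsf1, the largest subunit of the factor that recognizes the AAUAAA signal, had 83.1, 73.8 and 87.2 CPM in WT and 81.9, 83.9 and 82.4 CPM in Nipbl+/- MEFs. WT replicate 2 was the lowest, and the log2 fold change of 0.02 (95% interval -0.13 to 0.17) became -0.04 without it. Cpsf6, of the CFIm complex that steers the choice between polyadenylation sites, had 153, 149.6 and 149 CPM in WT and 154, 156 and 161 CPM in Nipbl+/- MEFs, higher in all 9 pairs by a log2 fold change of 0.06. No Cstf gene lies on the minus strand.

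**Figure D5:**
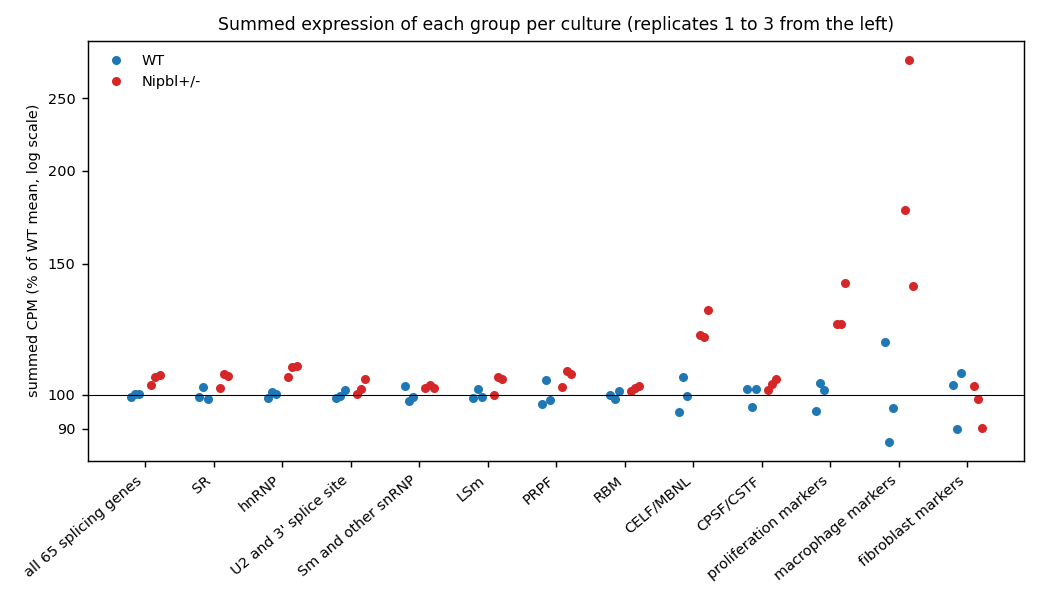
Summed TMM-scaled CPM of each role group and of 3 marker lists in each culture, as a percentage of the WT mean (log axis, line at 100). The summed splicing genes of the Nipbl+/- cultures lie at 103, 105.5 and 106%, and those of the CELF/MBNL group at 119 to 130%, while proliferation and macrophage markers lie farther from the line.

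Markers of proliferation and of macrophages split the cultures the same way. The 17 measured proliferation markers summed to 1284, 1401 and 1371 CPM in WT and to 1682, 1684 and 1909 CPM in Nipbl+/- MEFs, a ratio of the means of 1.3. Of these, 8 were higher at an adjusted p under 0.05 (Ccna2, Top2a, Mcm6, Mcm7, Mki67, Bub1, Ccnb2 and Cdk1), 16 had an unadjusted p under 0.05, and the median log2 fold change was 0.40. Of these 8 calls, 7 remained with limma-voom or upper-quartile normalization and 3 with the replicate block. All 8 remained with each other alternative that kept every culture. Without WT replicate 2, all 8 remained (adjusted p from 0.0238 to 0.0436 in the quasi-likelihood test). It was 0 without WT replicate 1 (adjusted p from 0.103 to 0.18), Nipbl+/- replicate 1 or Nipbl+/- replicate 2, 1 without WT replicate 3 and 2 without Nipbl+/- replicate 3. The 10 measured macrophage markers summed to 83.4, 61.4 and 68.2 CPM in WT and to 126, 200 and 99.3 CPM in Nipbl+/- MEFs, with a median log2 fold change of 1.04. None passed the adjusted threshold of the quasi-likelihood test, where C1qb came nearest at 0.056. All 10 were higher at an unadjusted p under 0.05, beside 8.98% of all tested genes. Of these 10 markers, 7 were higher in all 9 pairs, beside 12.0% of all tested genes. Their part in the differences of the splicing genes was not tested. The other marker lists separated the genotypes less or were near 0: fibroblast markers had a ratio of 0.972 and endothelial markers of 0.946, and the epithelial list, at a ratio of 2.36, never exceeded 3.01 CPM.

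The rest of the splicing pathway, taken from lists of genes outside the name rule, gave no gene with an adjusted p under 0.05 in either direction. Of all tested genes, 1.04% were higher and 0.916% lower at that threshold. At an unadjusted p under 0.05, 8.98% of all tested genes were higher and 7.95% lower, and 48.4% had a log2 fold change above 0. Of 32 tested spliceosome helicases and core factors, 27 had a log2 fold change above 0, with a median of 0.06, and 1 had an unadjusted p under 0.05: Ppil1, a peptidyl-prolyl isomerase of the active spliceosome, at 0.22 (adjusted p = 0.168 in the quasi-likelihood test). Among 15 SR kinases and SR-like proteins the median was 0.01, and Clk1, a kinase that phosphorylates SR proteins, was at -0.20 (adjusted p = 0.112). Among 18 other splicing regulators the median was 0.05, and the smallest p belonged to Elavl4, a neuronal RNA-binding protein below 1.5 CPM in every culture, at 1.35 (adjusted p = 0.162). The 9 exon junction and mRNA export genes had a median of 0.03, with Thoc3, of the THO export complex, at 50.8, 52.8 and 51.9 against 59.5, 56.8 and 60.2 CPM (log2 fold change 0.18, adjusted p = 0.103). The 4 other cleavage and polyadenylation genes and the 5 genes of snRNP assembly by the SMN complex were all above 0, beside 48.4% of all tested genes. Their medians were 0.09 and 0.08, with the RNA kinase Clp1 leading at 0.14 and the snRNA-binding Gemin5 at 0.17.

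Promoter sequences of the splicing genes were read from RefSeq (GRCm38.p6) as windows of 250 bases before to 50 bases after each annotated start. They matched 57 of 64 gene names and gave 81 windows. The upstream parts of 4 are shown, because 3 of these genes (Hnrnpa2b1, U2af1 and Tra2b) lead their role groups with values higher in all 9 pairs, Rbm4 is the gene lower in all 9, and the RefSeq start of each falls on the end of the gene in the files. They were chosen after those values were seen. Each runs 5′ to 3′ on the minus strand, up to the base before the start, and capitals mark every match, on either strand, to the CCAAT box, the GC box GGGCGG or the TATA box TATAAA.

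Hnrnpa2b1, chr6:51469895-51470144: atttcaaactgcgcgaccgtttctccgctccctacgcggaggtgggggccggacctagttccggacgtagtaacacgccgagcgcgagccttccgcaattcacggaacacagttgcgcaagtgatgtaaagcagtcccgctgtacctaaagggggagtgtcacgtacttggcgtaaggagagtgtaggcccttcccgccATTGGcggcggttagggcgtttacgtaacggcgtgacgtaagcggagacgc

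U2af1, chr17:31658755-31659004: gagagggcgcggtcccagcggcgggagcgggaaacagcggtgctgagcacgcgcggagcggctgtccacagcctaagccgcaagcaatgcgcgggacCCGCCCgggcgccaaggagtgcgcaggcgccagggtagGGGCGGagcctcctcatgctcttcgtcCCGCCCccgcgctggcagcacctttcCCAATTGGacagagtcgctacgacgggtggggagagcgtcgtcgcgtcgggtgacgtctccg

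Tra2b, chr16:22266006-22266255: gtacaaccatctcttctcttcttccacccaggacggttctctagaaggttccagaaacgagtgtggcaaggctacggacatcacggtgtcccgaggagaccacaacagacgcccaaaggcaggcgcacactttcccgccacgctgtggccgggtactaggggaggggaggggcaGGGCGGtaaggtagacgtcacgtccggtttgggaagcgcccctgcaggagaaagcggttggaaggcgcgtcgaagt

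Rbm4, chr19:4793902-4794151: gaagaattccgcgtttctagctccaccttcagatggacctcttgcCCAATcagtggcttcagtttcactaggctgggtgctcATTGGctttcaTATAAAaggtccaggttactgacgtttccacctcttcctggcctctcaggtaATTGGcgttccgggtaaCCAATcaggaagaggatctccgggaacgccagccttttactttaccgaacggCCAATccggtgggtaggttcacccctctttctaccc

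Hnrnpa2b1 had 1 match, a CCAAT on the opposite strand 51 bases before the start, and Tra2b had 1 GGGCGG. U2af1 had 3 GGGCGG and 2 CCAAT, the latter as an overlapping pair on both strands, in the most GC-rich of the 4 windows at 71.6%. Rbm4, with the lowest GC content at 52%, had 5 CCAAT and 1 TATAAA and no GGGCGG. Among all 81 windows of splicing genes, CCAAT was found in 40.7% beside 37.4% of all 32851 windows, GGGCGG in 49.4% beside 35.7%, and TATAAA in 13.6% of both. CCGGAAG was found in 17.3% beside 8.86% and CACGTG in 12.3% beside 7.15%. The palindromic NRF1 motif was in 2.47% beside 0.971%, which is only 2 windows, of Snrnp70 and Srsf11. The 32851 windows were not limited to genes expressed in the MEFs. Both strands of each window were searched, and a base could belong to more than one motif. The median GC content was 60% beside 52.7%, and several of these motifs are GC-rich. The matches are letters in a window and not sites at which a factor was measured.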

How the data were processed

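The authors sequenced ribosome-depleted total RNA, prepared with an Illumina TruSeq kit, and aligned the reads to mm10 with TopHat2 2.0.10 and an Ensembl annotation. The counter was not given in the sources used here. They deposited, for each culture, a read count and an RPKM value for each of 38483 genes. The label of the RNA extraction speaks of mouse ES cells while the other labels name MEFs, and the fibroblast markers above are those of MEFs. Total counts of 20307454 to 25990783 set the counting precision, and the spread between cultures exceeded counting noise. All 19214 plus-strand genes were at 0 and were not analysed.

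After filterByExpr (minimum count 10) and TMM normalization, the genotypes were compared by quasi-likelihood F tests in edgeR 4.0.16 (R 4.3.3), with no covariate and Benjamini-Hochberg adjustment over the 9061 tested genes at 0.05. Each standard error is the size of the log2 fold change over the root of its F statistic. RPKM was used only to compare levels between genes. The steps were tested on simulated data. The alternatives were the exact test, DESeq2 1.42.0 and limma-voom (limma 3.58.1), 3 other normalizations, 2 other filters, the replicate block, and each culture left out.

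Genes, gene lists, tests and alternatives were chosen with earlier results of these data known. The text names every splicing gene past the threshold and the 6 higher and 6 lower genes of smallest p. It also names the most abundant and the smallest-p gene of each role group, and the smallest-p gene of each further splicing list. The other splicing genes are named to account for the rest, 1 gene is not reported here, and Rbm15 is not covered. Exon overlaps come from GENCODE M21, which holds 64 of the 65 identifiers on the same chromosome and strand. Exon overlaps with a plus-strand gene were found for 20 genes and with another minus-strand gene for 10.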

Additional observations from a re-analysis of the deposited data

How the results depend on the processing

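The number of splicing genes higher in Nipbl+/- MEFs was 1 under 7 of the 9 alternatives that keep all cultures, and 3 with the exact test of edgeR and with DESeq2, where Mbnl3 (adjusted p = 0.0487 and 0.0473) and Rbm46 (0.0382 and 0.0398) joined Celf2. Those tests also called more of all genes, 2.42% and 2.62% higher. Without 1 culture the number lay between 0 and 2. It was 0 without WT replicate 1, Nipbl+/- replicate 1 or Nipbl+/- replicate 2, fits in which at most 3 of all genes were higher. The number lower was 0 in every fit. The median log2 fold change of the splicing genes was 0.099 with library size alone, where the median of all genes was 0.0325 and 142 genes were higher and 70 lower (94 and 83 with TMM). Without 1 culture it was 0.0469 to 0.0648. The splicing genes exceeded all genes by 0.0513 to 0.0751 in every fit. The log2 fold change of Nipbl without 1 culture was -0.474 to -0.385, and its adjusted p was 0.0755, 0.0864 and 0.0772 without WT replicate 1, Nipbl+/- replicate 1 and Nipbl+/- replicate 2.

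Signs turned for 4 of the 39 genes picked by the naming rule: Sf3b1 with library size alone (0.0138), Cpsf1 without WT replicate 2 (-0.0424), Snrnp70 without WT replicate 2 (-0.0476) or Nipbl+/- replicate 2 (-0.00586), and Lsm7 without Nipbl+/- replicate 2 (-0.0159) or 3 (-0.012). Without other single cultures Cpsf1 reached 0.0755, Snrnp70 0.0495 and Lsm7 0.0824. Of 584 values of these genes under alternatives, 6 were reversed, 50 lost and 5 gained the threshold. The cause was not tested. Calls over all genes differed widely between the fits without 1 culture. They were 1 higher and 2 lower without Nipbl+/- replicate 1, and 130 higher and 138 lower without WT replicate 2. Cultures with the same replicate number did not deviate together over all tested genes (correlations -0.0621, -0.0364 and -0.142). Whether the numbers pair the cultures in some other way cannot be told from these values. With the replicate block, 34 of all genes were higher and 52 lower, 1 splicing gene was higher and 0 lower, 3 of 8 proliferation markers kept the threshold, the median was 0.0602, and Nipbl was at -0.431 (adjusted p = 0.0406). The widest intervals belonged to Rbm47, Celf4, Celf5, Rbm48 and Rbm46.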
